A study of Homo sapiens with 24 samples.

Results

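The small nucleolar RNA host genes are long non-coding RNA genes that carry the sequences of small nucleolar RNAs (snoRNAs) in their introns. They were taken here as every gene of the count table whose symbol is SNHG followed by a number, plus GAS5, EPB41L4A-AS1, ZFAS1 and DANCR, which gave 32 of the 60605 genes counted. The counts come from PRO-seq (precision run-on sequencing), which sequences the 3′ ends of nascent RNA and so measures transcription in progress rather than mature RNA. T47D is a luminal breast cancer cell line, and Clones 28, 35 and 39 are clonal lines of dTAG-TRPS1 T47D cells, in which the endogenous TRPS1 protein, a GATA-family repressor, carries a degradation tag in every group, controls included. Each clone was treated for 90 minutes with 0.1% DMSO, the vehicle, or with 100 nM dTAG-13, a small molecule that directs the tagged protein to a ubiquitin ligase. Each of the 6 groups held 4 replicates, spread over 1 day of treatment and collection, and both treatments of a replicate were collected together. The replicates are cultures of 1 clone each, so a difference between clones concerns these clones.

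Host genes yield snoRNAs from their introns. After splicing, the intron is trimmed down to the snoRNA. Many snoRNAs guide the chemical modification of ribosomal and spliceosomal RNA, those with boxes C and D 2′-O-methylation and those with boxes H and ACA pseudouridylation. The spliced exons of many host genes are short-lived and are removed by nonsense-mediated decay, so that mature RNA says little about how strongly such a gene is transcribed. Many host genes belong to the class with a terminal oligopyrimidine (TOP) start, a C followed by an unbroken run of pyrimidines, which they share with ribosomal protein genes.

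The total count was between 3226718 and 9575803 per library. Replicates of a group differed by more than counting error, with a chi-square per degree of freedom of 1.65 to 13.6 over 36 pairs. Luminal markers were present in all 24 libraries (ESR1 1205 to 1912 and GATA3 717 to 985 CPM, the count relative to the scaled library total), except that TFF1 was low (median 2.51 CPM). Of the basal markers, KRT5 was at 0 in 16 libraries and KRT14 in 11, whereas TP63 (6 to 22 CPM) and ACTA2 (3.56 to 13.4 CPM) had counts in every library. The TRPS1 gene had 23280 to 69958 counts per library, which does not check the degradation, since dTAG-13 acts on the protein. Of the host genes 31 passed the filter on low counts. SNHG18, with 8 counts in all 24 libraries together, did not.

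In the GENCODE annotation, 145 snoRNA genes lie inside 31 of the 32 host genes, and 98 of them had at least 1 count. Where a nested snoRNA gene had counts in a library, it never had more than its host (1983 of 1983 comparisons). This could hardly come out otherwise for hosts such as DANCR, with 450 to 1517 counts per library where its SNORA26 had 4 to 58. It therefore does not show that reads were counted in both. That the deposited count of a host holds the reads of its nested snoRNA genes was assumed. The annotation places no snoRNA gene inside GAS5, whereas RefSeq lists 11 there, so the counts of GAS5 could not be split. It also has no row over 2 of the 8 RefSeq snoRNAs of SNHG1 (SNORD29 and SNORD31) or 1 of the 2 of SNHG5 (SNORD50A), so any reads of these stay in the counts outside nested genes. Of the snoRNAs below, SNORA13 and SNORA73B are box H/ACA, with the ACA trinucleotide near the 3′ end in capitals, and SNORD26 and SNORD12C are box C/D, with boxes C (TGATGA) and D (CTGA) in capitals where a script found exactly those letters near the ends. They are shown because a call of each of their hosts, EPB41L4A-AS1, SNHG3, SNHG1 and ZFAS1, was lost once nested reads were taken out. All are 5′ to 3′ in hg38: SNORA13 at chr5:112161485-112161617 on the plus strand, SNORA73B at chr1:28508559-28508762 on the plus strand, SNORD26 at chr11:62855292-62855366 on the minus strand and SNORD12C at chr20:49278940-49279028 on the plus strand. Each is intronic in most annotated transcripts of its host: SNORA13 in 8 of 9, SNORD26 in 67 of 80, SNORA73B in 2 of 3 and SNORD12C in 11 of 14.
SNORA13: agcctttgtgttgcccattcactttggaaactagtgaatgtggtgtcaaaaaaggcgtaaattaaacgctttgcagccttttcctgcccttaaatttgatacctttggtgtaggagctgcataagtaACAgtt
SNORA73B: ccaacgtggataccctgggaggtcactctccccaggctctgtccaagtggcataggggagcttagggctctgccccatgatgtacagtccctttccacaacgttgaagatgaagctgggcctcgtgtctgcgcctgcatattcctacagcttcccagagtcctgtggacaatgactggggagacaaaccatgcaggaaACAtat
SNORD26: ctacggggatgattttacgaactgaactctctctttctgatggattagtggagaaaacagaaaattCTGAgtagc
SNORD12C: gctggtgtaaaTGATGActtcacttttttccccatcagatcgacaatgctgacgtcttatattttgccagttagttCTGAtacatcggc

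The start sites of 28 host genes could be matched to RefSeq promoters of 300 bases (GRCh38.p14). A C at the annotated start followed by at least 4 pyrimidines was found in 7 of the 28 (25%), and in 1429 of all 35116 promoters (4.07%). The 7 were SNHG4, SNHG5, SNHG12, SNHG18, SNHG19, SNHG32 and ZFAS1. Of the GATA-family motif (A/T)GATA(A/G), only the forms AGATAA and TGATAA were searched, on both strands, and the forms ending in G were not. AGATAA or TGATAA was in 4 host gene promoters (14.3%) and in 16.3% of all promoters. The estrogen receptor half-site AGGTCA, also on both strands, was in 1 (3.57%, GAS5) and in 13.8% of all. A match is only a match of letters. For GAS5, SNHG14 and SNHG3 the 60 bases around the RefSeq start lay outside the counted gene span. The GAS5 window was chr1:173869016-173869075 and its span chr1:173858559-173868882. The SNHG14 window was chr15:24823578-24823637, where its span begins at 24978583. Letters found or missed for these genes, such as the AGGTCA of GAS5, therefore do not describe the start of the counted gene. The windows of 60 bases around the start are given for ZFAS1 (chr20:49278612-49278671, plus strand), SNHG19 (chr16:2155329-2155388, minus strand), SNHG4 (chr5:139274071-139274130, plus strand) and, without such a run, SNHG29 (chr17:16438957-16439016, plus strand), since these hosts recur in the comparisons. Capitals mark the pyrimidine run from the start, which is the base after the first 30.
ZFAS1: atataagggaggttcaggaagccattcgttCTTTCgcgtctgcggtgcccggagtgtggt
SNHG19: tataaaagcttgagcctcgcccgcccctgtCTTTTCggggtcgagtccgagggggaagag
SNHG4: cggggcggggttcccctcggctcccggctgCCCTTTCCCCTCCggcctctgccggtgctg
SNHG29: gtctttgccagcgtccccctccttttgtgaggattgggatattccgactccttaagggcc

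Counts per length of gene span differed widely between the host genes. Per kilobase of gene span, SNHG19 was highest at 178 ± 21.1 CPM per kb (mean ± SD, n = 24 libraries), ahead of SNHG25 at 148 ± 36.1, SNHG9 at 93 ± 25.7, SNHG1 at 90.7 ± 31.7 and GAS5 at 61.4 ± 17.9. The range of each of these 5 overlapped that of the next gene in order, and the first gap came between the sixth, SNHG3 (53.3 ± 7.10), and ZFAS1 (33.2 ± 2.04). EPB41L4A-AS1 came 14th at 14.3 ± 2.0 and DANCR 15th at 13.1 ± 0.959. At the bottom were SNHG31 at 0.242, SNHG27 at 0.0357 and SNHG18 at 0.0158. The order depends on the annotated span and holds nested snoRNA reads. SNHG19, SNHG25 and SNHG9 have the shortest spans, at 614, 540 and 615 bases, whereas SNHG31 spans 153395 and SNHG14, at 0.420 CPM per kb, 441754. How much of the order follows the span was not tested. By CPM without correction for length the order was different, with ZFAS1 first at 711 and GAS5 second at 633, ahead of SNHG1 at 361 and SNHG3 at 262.

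**Figure D1:**
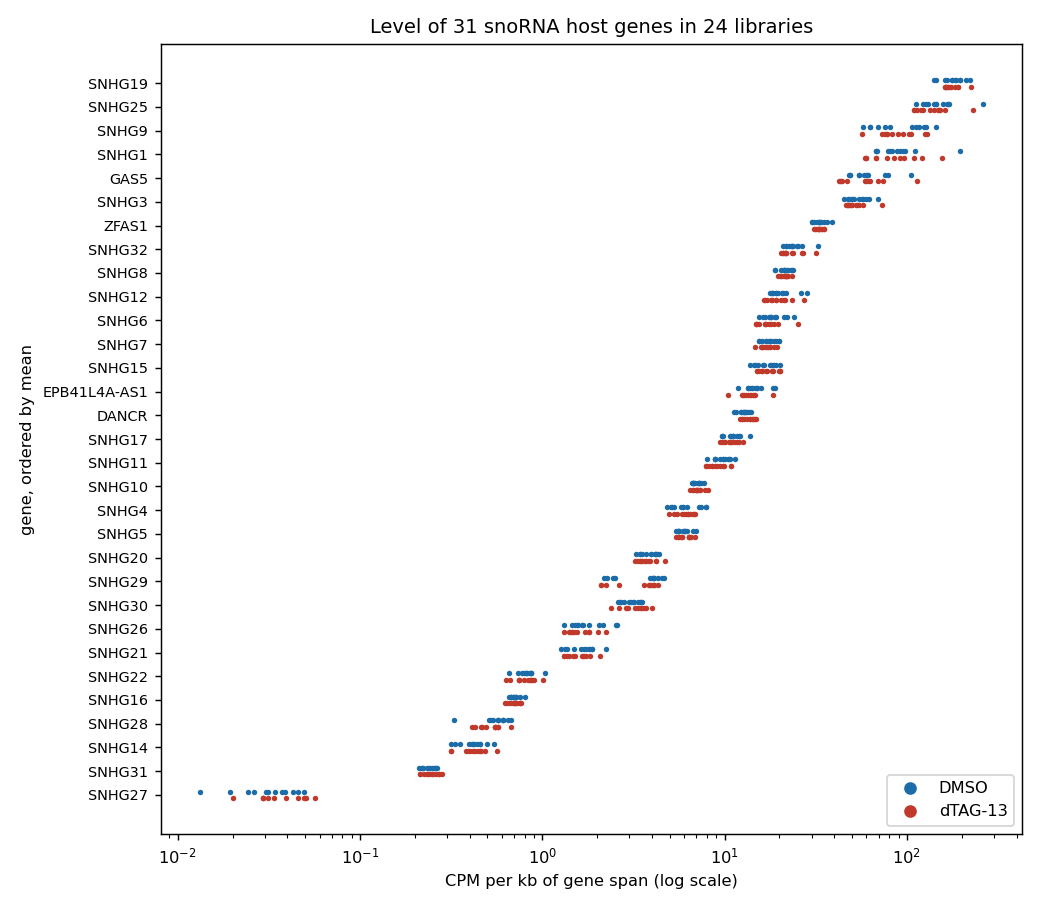
Level of the 31 host genes that passed the filter, in CPM per kb of gene span on a log axis, with 1 point per library (24 per gene; blue DMSO, red dTAG-13) and genes ordered by mean. SNHG19 is highest at a mean of 178 and SNHG27 lowest at 0.0357, and the DMSO and dTAG-13 points of a gene lie over each other.

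Several hosts share their span with another gene, so that their counts cannot be assigned to the host alone. SNHG3 lies inside RCC1 and SNHG4 inside MATR3, a nuclear matrix protein gene, both on the same strand. LINC01618 covers 99.4% of DANCR and SEC14L1 84.6% of SNHG20, also on the same strand. The same holds for SNHG5, of which ENSG00000271793 covers 99.3%, and SNHG32, of which ENSG00000285565 covers 99.1%. SNHG28 lies inside ENSG00000256029, and ENSG00000252690 covers 65.1% of SNHG21. ENSG00000271793 had 59688 counts in all where SNHG5 had 21114, and ENSG00000285565 had 20399 where SNHG32 had 15113. Genes on opposite strands were counted apart: SNHG8 had 17532 counts in all and PRSS12, which overlaps it by 5279 bases, had 80, and SNHG29 had 18603 where LRRC75A, overlapping it by 38673 bases, had 671.

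The snoRNA genes took a large and variable share of some host counts. SNHG1 had 37.8% of its reads in 7 nested snoRNA genes, SNHG25 26.8%, SNHG3 24.6%, SNHG6 24%, SNHG12 21.0% and SNHG32 19.2%. For EPB41L4A-AS1 the share was 12%, for ZFAS1 9.16% and for DANCR 2.26%, and SNHG14, with 84 nested snoRNA genes, had 9.06%. The nested reads varied more between libraries than the rest of the host. For SNHG1 the coefficient of variation over 24 libraries was 60.9% in the nested genes and 19.96% outside them, and it was 34.9% for the whole count. For SNHG32 the values were 59.1%, 5.70% and 13.4%, and for ZFAS1 they were 54.8%, 3.98% and 6.14%. The part outside did not vary less than the whole count for DANCR, SNHG7, SNHG9, SNHG10, SNHG11, SNHG16, SNHG19 and SNHG20. For SNHG19 it was 13.8% outside and 11.9% for the whole count.

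This share moved with the library. All 991 snoRNA and small Cajal body RNA genes together took 0.144% to 0.535% of the counts of a library, and the highest values were in Clone 28 DMSO replicate 1 (0.535%) and Clone 35 dTAG-13 replicate 2 (0.472%). SNHG1 was also highest in these libraries, at 777 and 622 CPM against 234 to 480 CPM in the other 22. In the first of them 52.8% of the SNHG1 reads lay in nested snoRNA genes and in the second 53.3%, against 23.8% to 48.1% elsewhere. The part of these reads in the results was measured by taking the counts of the nested snoRNA genes out of the host counts, an alternative chosen after seeing the data.

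**Figure D2:**
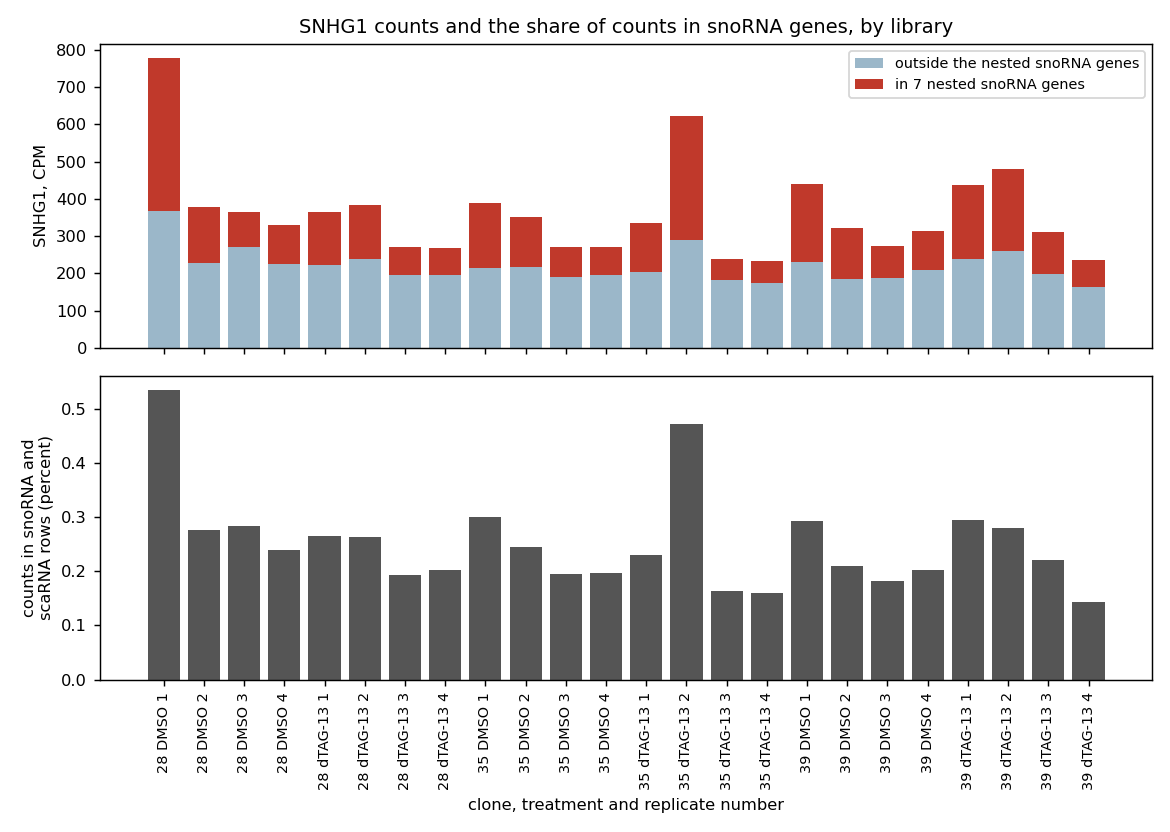
Upper panel, SNHG1 in CPM in each of the 24 libraries, divided into reads outside (blue-grey) and inside (red) its 7 nested snoRNA genes; lower panel, the percentage of all counts in snoRNA and scaRNA genes in the same libraries. Clone 28 DMSO replicate 1 and Clone 35 dTAG-13 replicate 2 are highest in both panels.

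The first comparison asked whether loss of TRPS1 for 90 minutes changed transcription of the host genes. With the 3 clones together, none of the 31 host genes passed the threshold of adjusted p 0.1 (edgeR quasi-likelihood test, lowest adjusted p = 0.283), where 123 of 22326 genes did (0.551%). At an unadjusted p under 0.05 there were 2, DANCR and SNHG26, where 1411 of 22326 genes were at that level, and DESeq2 called 1, DANCR, where it called 0.717% of all genes. Estimates ran from -0.14 for SNHG26 to 0.27 for SNHG27 (SE 0.19), on the log2 scale for dTAG-13 against DMSO. The median was -0.05 over the host genes and -0.00 over all genes, with 23 host genes below 0 and 8 above. With the nested snoRNA reads taken out, 18 were below 0 and 13 above.

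Among the members added to the set by name, GAS5, a growth-arrest transcript, had a log2 fold change of -0.07 (SE 0.17), ZFAS1 -0.01 (SE 0.03) and EPB41L4A-AS1 -0.12 (SE 0.07). GAS5 ranged from 500 to 1081 CPM in DMSO and from 438 to 1166 CPM in dTAG-13, so the groups overlapped almost fully. DANCR, named for its part in holding progenitor cells undifferentiated, varied little between libraries and hosts SNORA26. In Clone 28 it was at 153, 150, 146 and 140 CPM in DMSO and 168, 149, 156 and 163 CPM in dTAG-13. In Clone 35 it was at 157, 149, 145 and 145 against 166, 155, 159 and 163 CPM, and in Clone 39 at 128, 130, 139 and 142 against 138, 142, 141 and 144 CPM. It was above its DMSO partner in 11 of 12 pairs, with a log2 fold change of 0.10 over all pairs (SE 0.03, adjusted p = 0.283). With each pair of same-numbered replicates as a block in edgeR it passed the threshold (adjusted p = 0.0504), as did 521 genes in all (2.33%), but without the 2 libraries highest in snoRNA reads and their partners the blocked value was 0.103. LINC01618, which spans nearly all of DANCR, had a log2 fold change of 0.12 (adjusted p = 0.139, and 0.0091 with the block).

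No host gene passed the threshold in a single clone. Clone 28 had 12 calls among all genes (0.0537%), with 4 host genes and 1078 of all genes at an unadjusted p under 0.05. Clones 35 and 39 each had 0 calls (0.0%), with 2 host genes at that level in each, where 646 and 754 of all genes were. EPB41L4A-AS1 had the lowest p in Clone 28, with 78.8, 58.0, 81.5 and 63.2 CPM in DMSO and 62.8, 56.2, 53.9 and 45.0 CPM in dTAG-13. Its log2 fold change was -0.37 (SE 0.10, adjusted p = 0.284), and with the replicate block it passed (adjusted p = 0.0039), as 263 genes did (1.18%). Most of the difference lay in SNORA13, shown above, which was at 18.4, 6.49, 26.7 and 13.7 CPM in DMSO and at 3.34, 5.69, 3.14 and 2.70 CPM in dTAG-13. Outside SNORA13 the blocked log2 fold change of the host was -0.10 (SE 0.07, adjusted p = 0.822). In the same clone 48 of the 49 tested snoRNA genes nested in the hosts, and 162 of 171 other snoRNA and scaRNA genes, were below 0, both with a median of -0.76. This clone holds DMSO replicate 1, the library with the highest share of snoRNA reads. SNORA13 itself was highest in DMSO replicate 3. EPB41L4A-AS1 also passed with the block when the 2 libraries highest in snoRNA reads were left out. In Clone 35 only 14 of the 49 nested genes were below 0 (median 0.14), and in Clone 39 22 of 49 (median 0.03). None passed in Clone 28 without the block, and 2 nested and 12 other ones passed there as lower with it. The edgeR test for a treatment effect that differs between clones called 0 genes (0.0%), as did DESeq2 (0.0%). SNHG4 and EPB41L4A-AS1 were the 2 host genes at an unadjusted p under 0.05, where 407 of all genes were.

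The second comparison was between the clones in DMSO. By the test for any difference, 5 of 31 host genes passed (SNHG29, SNHG4, SNHG26, EPB41L4A-AS1 and DANCR), against 28.5% of all genes, so the host genes were called at no higher a rate than genes at large. The calls between Clone 39 and Clone 28 were 4 (all genes 26.7%), those between Clone 39 and Clone 35 were 4 (22.6%) and that between Clone 35 and Clone 28 was 1 (5.25%).

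SNHG29, the host of the SNORD49 snoRNAs and SNORD65, differed most. In DMSO it was at 93.8, 102, 90.2 and 104 CPM in Clone 39, at 192, 162, 166 and 169 CPM in Clone 28, and at 189, 180, 171 and 170 CPM in Clone 35. Every Clone 39 library lay below every library of the other clones, and the dTAG-13 libraries showed the same split, with 86.7, 86.8, 109 and 93 CPM in Clone 39 against at least 151 CPM elsewhere. The log2 fold change of Clone 39 was -0.82 against Clone 28 (SE 0.07, adjusted p = 5.03e-11) and -0.86 against Clone 35 (SE 0.07, adjusted p = 1.60e-11). With dTAG-13 the first of these was -0.78.

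The neighbours of SNHG29 moved with it. SNHG29 lies on the short arm of chromosome 17 (chr17:16438767-16480249, hg38), and of the 33 other genes tested within 1 Mb, 24 were called lower and 0 higher in Clone 39 than in Clone 28, with a median of -0.68. In windows of 5 Mb, chosen after seeing the data, the median log2 fold change over genes was -0.88, -0.89, -0.78, -0.75 and -0.75 from 0 to 25 Mb of chromosome 17. From 25 to 85 Mb it lay between -0.03 and 0.09. SNHG16, SNHG20, SNHG25 and SNHG30, which lie on chromosome 17 beyond 25 Mb, were at -0.04, 0.18, -0.32 and -0.04, and none of them passed. SNHG20 passed as higher with the replicate number as a term shared across clones (0.18, adjusted p = 0.059), in the dTAG-13 libraries (0.23, adjusted p = 0.061), with nested reads taken out (0.25, adjusted p = 0.0466) and without the 2 libraries highest in snoRNA reads (0.23, adjusted p = 0.0948). Between Clones 35 and 28, the same 5 windows had medians of -0.10 to 0.06. The DNA of the clones was not measured here.

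SNHG26 and SNHG4 were higher in Clone 39. SNHG26 was at 40.7, 48.6, 38.4 and 47.7 CPM in Clone 39, against 31.3, 24.7, 27.3 and 29.5 CPM in Clone 28 and 34.1, 29.3, 31.1 and 28.6 CPM in Clone 35. These groups did not overlap, and the log2 fold change was 0.64 against Clone 28 (SE 0.10, adjusted p = 1.02e-05) and 0.52 against Clone 35 (SE 0.10, adjusted p = 0.000147). In dTAG-13 the differences were smaller, at 0.47 (adjusted p = 0.000764) and 0.33 (adjusted p = 0.0182), and Clone 39 (32.4 to 41.8 CPM) overlapped Clone 35 (26.3 to 34.1 CPM). The 20 tested neighbours of SNHG26 within 1 Mb had a median of 0.08 between Clones 39 and 28, with 4 called higher and 2 lower.

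SNHG4, which lies within MATR3, was at 85.0, 79.8, 77.7 and 85.3 CPM in Clone 39, 67.1, 56.8, 51.9 and 55.0 CPM in Clone 28, and 63.7, 61.9, 55.7 and 63.9 CPM in Clone 35. The log2 fold change was 0.51 against Clone 28 (SE 0.08, adjusted p = 1.02e-05) and 0.42 against Clone 35 (SE 0.08, adjusted p = 0.000129). MATR3 itself, whose count includes these reads, was at 0.21 against Clone 28 (adjusted p = 0.022). With dTAG-13 the difference of SNHG4 was smaller, at 0.22 against Clone 28 and 0.09 against Clone 35, and the second did not pass.

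The other clone calls were smaller, and each was lost when certain single libraries were left out. SNHG14, the long imprinted host of the SNORD115 and SNORD116 clusters, was at 0.35 in Clone 39 against Clone 28 (SE 0.13, adjusted p = 0.0545), and the call was lost without Clone 28 DMSO replicate 3 or 4 or Clone 39 DMSO replicate 1 or 2. In the dTAG-13 libraries SNHG14 was also at 0.35 and passed (adjusted p = 0.0536). DANCR was at -0.14 in Clone 39 against Clone 35 (SE 0.06, adjusted p = 0.0671), lost without Clone 35 DMSO replicate 1 or 2 or Clone 39 DMSO replicate 1 or 2. DESeq2 did not call it either. Its call for any clone difference was lost with DESeq2, with RLE size factors, with nested reads taken out and without the 2 libraries highest in snoRNA reads. Of these settings, only DESeq2 lost the call against Clone 35. In the dTAG-13 libraries DANCR passed against Clone 35 as well, at -0.19 (adjusted p = 0.0127). EPB41L4A-AS1 was at -0.30 in Clone 35 against Clone 28 (SE 0.10, adjusted p = 0.094). This call was lost in 8 of the 24 leave-one-out fits, and the log2 fold change was -0.06 outside SNORA13 and 0.05 in the dTAG-13 libraries.

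**Figure D3:**
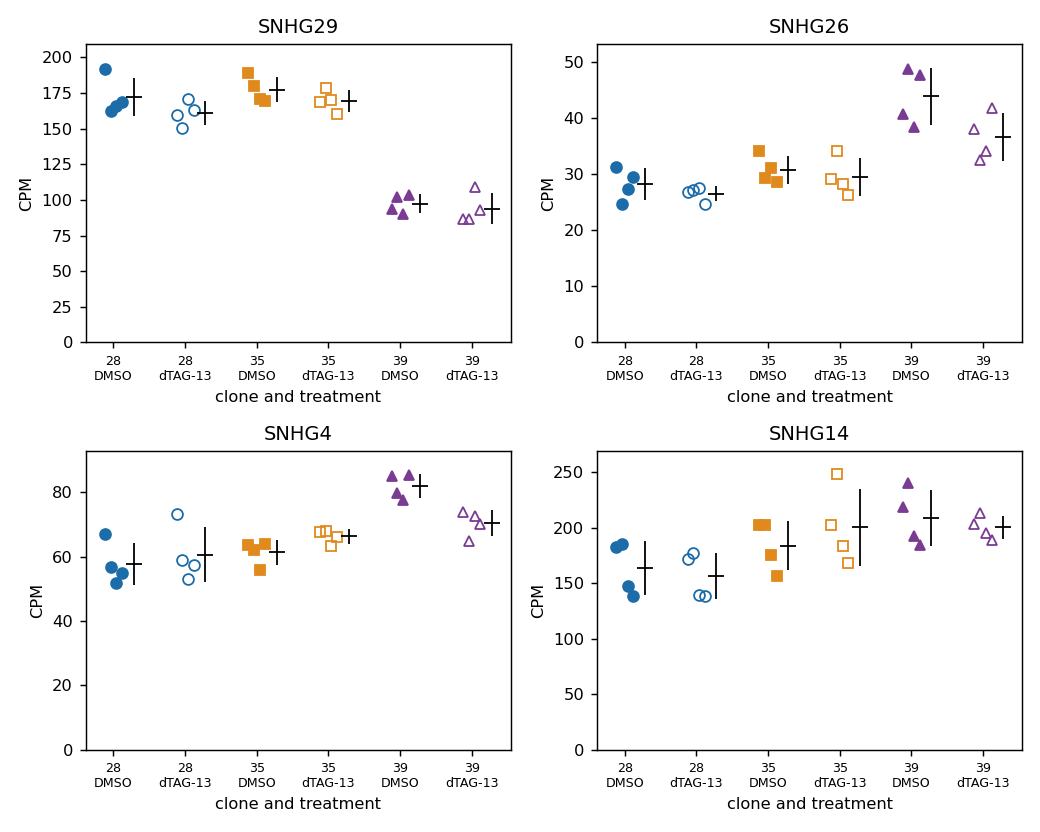
CPM of host genes that differed between clones, by clone and treatment, with 1 point per library and 4 per group, and axes that start at 0. SNHG29 sits between 86.7 and 109 CPM in the 8 Clone 39 libraries and at 151 to 192 CPM in the other 16.

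The third comparison was between replicate numbers, which stand for times of collection within a day. Whether a number marks the same time in the 3 clones is not given in the sources used here. In DMSO, 16 of 31 host genes differed between the 4 numbers beyond the spread over clones, against 30.3% of all genes. Numbers 3 and 4 were then set against 1 and 2, a split chosen with earlier results of these data known. It called 13 host genes, 4 higher and 9 lower, against 35.5% of all genes (17.6% higher and 18.0% lower). With libraries scaled by their totals alone, all-gene calls were 25.3% higher and 12.3% lower and host gene calls 5 higher and 6 lower.

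SNHG9, a short host of SNORA78 beside the ribosomal protein gene RPS2, rose most. In DMSO it was at 35.3, 40.7 and 50.0 CPM (lowest, median and highest of 6 libraries) in numbers 1 and 2, and at 65.4, 74.0 and 88.9 CPM in numbers 3 and 4. The dTAG-13 libraries also did not overlap, with 35, 47.1 and 50.6 CPM against 54.7, 63.9 and 79.5 CPM. The log2 fold change was 0.83 in DMSO (SE 0.07, adjusted p = 1.05e-09) and 0.54 in dTAG-13 (SE 0.06, adjusted p = 8.74e-10). RPS2, its neighbour, was at 0.02 in DMSO. SNHG9 spans 615 bases. Of the tested genes under 1 kb that are not snoRNA or scaRNA genes, 27.5% were called higher in DMSO and 10.8% in dTAG-13. SNHG7, SNHG19 and SNHG30 also rose in DMSO, by 0.16, 0.26 and 0.20. Of these SNHG19 was at -0.12 and SNHG30 at -0.04 in the dTAG-13 libraries, whereas SNHG7 was at 0.17 and passed there too.

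GAS5 and SNHG1 fell most. GAS5 was at 600.0, 704 and 1081 CPM in numbers 1 and 2 of DMSO and at 500, 534 and 618 CPM in numbers 3 and 4, so that the groups overlapped only slightly. Its log2 fold change was -0.45 (SE 0.08, adjusted p = 0.00785), and -0.64 in dTAG-13 (SE 0.15, adjusted p = 0.0357). SNHG1 was at 321, 382 and 777 CPM against 269, 294 and 364 CPM in DMSO, with a log2 fold change of -0.50 (SE 0.13, adjusted p = 0.0276) and of -0.74 in dTAG-13 (SE 0.15, adjusted p = 0.0178). SNHG14 fell by 0.31 on the log2 scale (SE 0.03, adjusted p = 6.99e-11), from 183, 202 and 240 CPM to 139, 166 and 192 CPM. SNHG3, SNHG5 and ZFAS1 fell by 0.23, 0.16 and 0.15, and SNHG8, SNHG10 and SNHG32 also passed as lower. The calls of SNHG10 and SNHG30 were each lost in 8 of the 12 fits that left out 1 library, that of SNHG32 in 4 and that of SNHG3 without Clone 35 DMSO replicate 3. In the dTAG-13 libraries the split called 2 host genes higher (all genes 12.3%) and 9 lower (all genes 11.2%). The calls in the same direction in both treatments were 7: SNHG9 and SNHG7 upward, and GAS5, SNHG1, SNHG14, SNHG5 and ZFAS1 downward. Of the 21017 genes tested in both, 3087 were called in the same direction in both. Both treatments of a replicate were collected together, so the dTAG-13 libraries are no independent repeat of the DMSO ones.

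**Figure D4:**
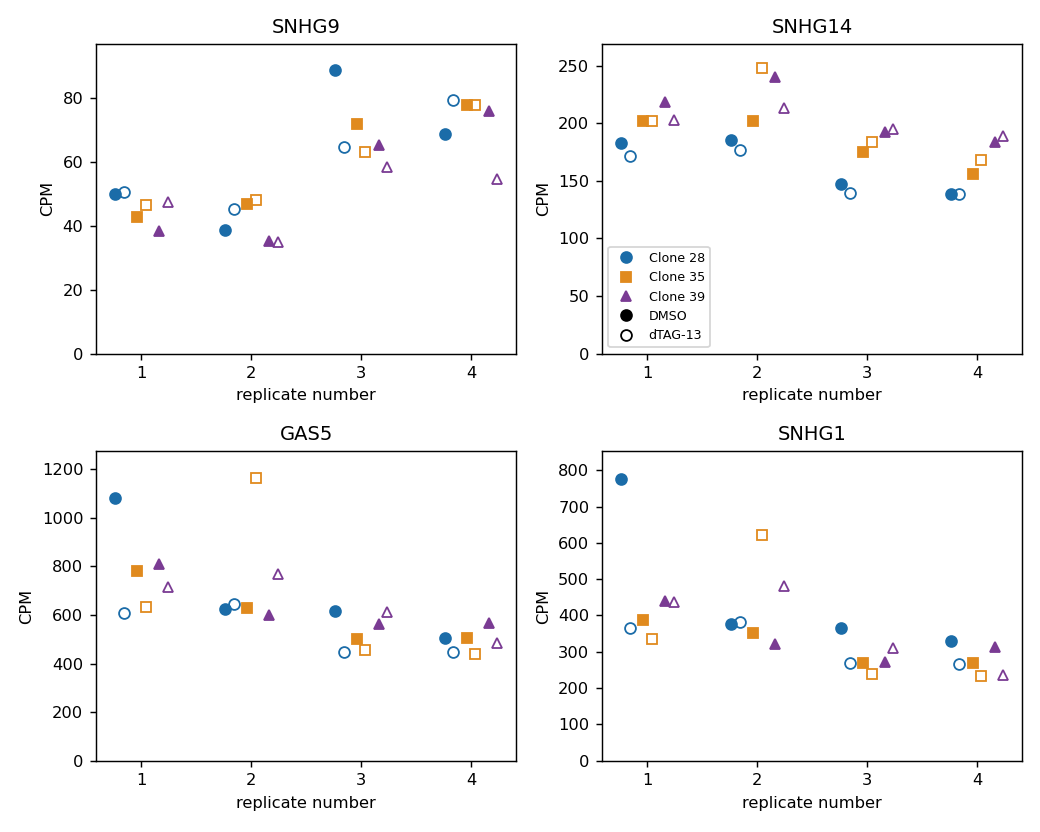
CPM of host genes that differed between replicate numbers, against the replicate number, with 1 point per library (colour and shape by clone, filled for DMSO and open for dTAG-13) and axes that start at 0. For SNHG9 the 12 libraries with numbers 1 and 2 reach at most 50.6 CPM and the 12 with numbers 3 and 4 start at 54.7 CPM.

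The nested snoRNA genes moved in the same comparison. Of 193 snoRNA and scaRNA genes tested in DMSO, 148 were called lower and 2 higher in numbers 3 and 4, with a median of -0.73, and in dTAG-13 144 of 196 were lower, with a median of -1.08. They took 0.310 ± 0.115% of the counts in numbers 1 and 2 of DMSO and 0.217 ± 0.038% in numbers 3 and 4 (n = 6 each). Of the snoRNAs printed above, SNORD26 was at -1.11 (adjusted p = 0.0216), SNORD12C at -1.15 (adjusted p = 0.00447) and SNORA73B at -0.82 (adjusted p = 0.0197). The remaining one, SNORA13, overlapped, with 4.12 to 18.4 CPM in numbers 1 and 2 of DMSO and 3.73 to 26.7 CPM in numbers 3 and 4.

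Taking the nested reads out changed which host genes passed. The count in DMSO was then 11, of which 7 were higher and 4 lower (all genes 17.6% and 18.0%), and 8 were also called with whole counts. SNHG1 went from -0.50 to -0.16 (adjusted p = 0.311), SNHG3 from -0.23 to -0.01, and ZFAS1 from -0.15 to -0.05, and none of them passed any longer. In the dTAG-13 libraries with nested reads taken out, SNHG1 kept its call as lower, at -0.39 (adjusted p = 0.0117), with any reads of SNORD29 and SNORD31 still in the count. There ZFAS1 went from called lower (-0.06) to called higher (0.06, adjusted p = 0.0781), and SNHG3 from -0.15, not called, to called higher (0.14, adjusted p = 0.00289). SNHG32 went from -0.12 to 0.07 and SNHG10 also no longer passed. SNHG6, SNHG12 and SNHG16 now passed as higher, at 0.24, 0.18 and 0.17. In dTAG-13 SNHG6 and SNHG16 passed as higher too, at 0.15 and 0.12, whereas SNHG12 passed as lower, at -0.13 (adjusted p = 0.0931). SNHG9 at 0.91, SNHG19 at 0.47, SNHG7 at 0.19 and SNHG14 at -0.22 still passed, and GAS5 could not be split. Without the 2 libraries highest in snoRNA reads the count was 11 (all genes 32.0%), of which 10 were called with all libraries.

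**Figure D5:**
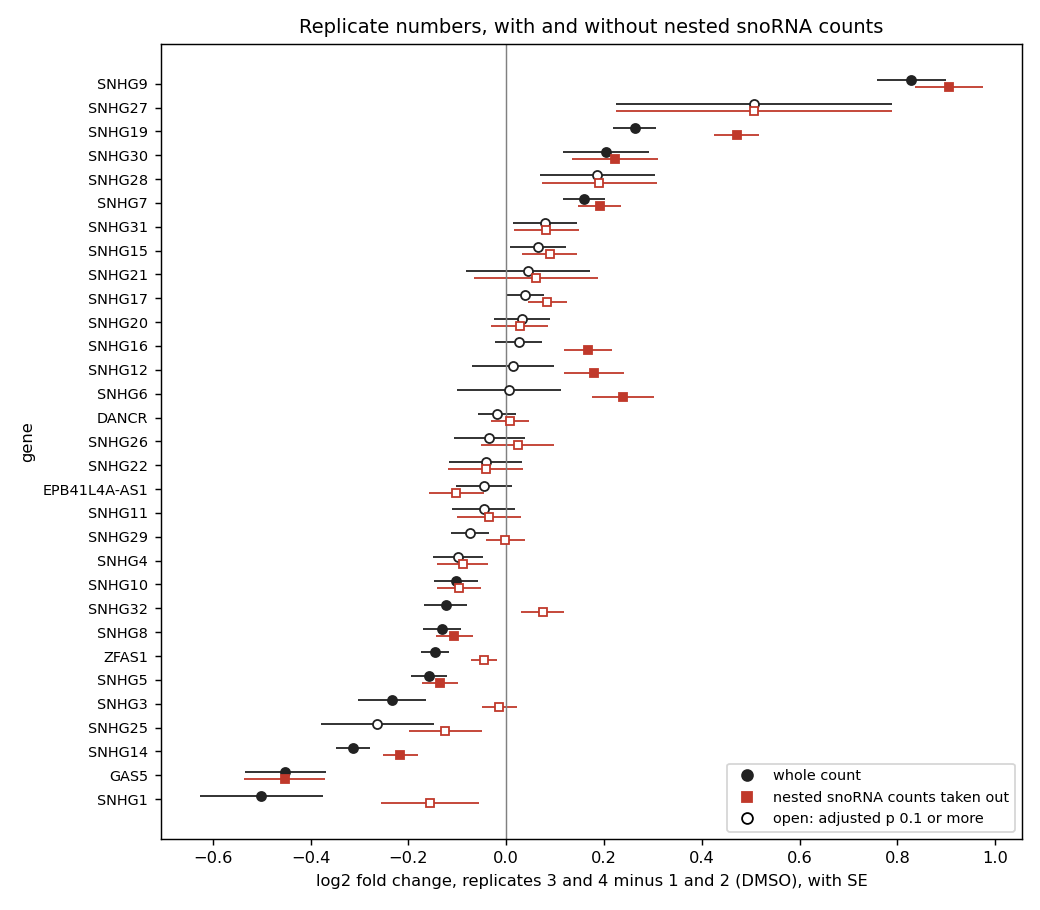
Log2 fold change of each host gene between replicate numbers 3 and 4 and numbers 1 and 2 in DMSO, with SE, for the whole count (black circles) and with nested snoRNA reads taken out (red squares); open symbols have an adjusted p of 0.1 or more. SNHG1 moves from -0.50 to -0.16 and SNHG9 stays above 0.8.

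Genes that act with the host genes were counted as lists. Treatment, which called 0.551% of all genes, called none of the box C/D core proteins (4 tested), the box H/ACA core proteins (4), the snoRNP assembly factors (12), the nonsense-mediated decay factors (10) or the protein-coding snoRNA hosts (37). Between numbers 3 and 4 and numbers 1 and 2 in DMSO, the protein-coding hosts had 4 higher and 15 lower of 37, with a median of -0.07 against -0.00 for all genes, of which 17.6% were called higher and 18.0% lower. Reads of the snoRNA genes inside the protein-coding hosts were not taken out, 148 of the 193 snoRNA and scaRNA genes were lower in this split, and the part of these reads in the calls was not tested. Among the hosts called were WDR43, a ribosome biogenesis factor, at -0.45 and RPL13A and RPL12, ribosomal proteins, at -0.37 and 0.36. Of the box C/D proteins NOP58 fell by 0.28 and NOP56 by 0.17, the box H/ACA protein NOP10 rose by 0.49, and the assembly factors had 2 higher and 3 lower of 12, and the decay factors 2 and 3 of 10. Between Clones 39 and 28, where 26.7% of all genes were called, the decay factor SMG6 was at -0.86 and the protein-coding host EIF4A1 at -1.03. Both are genes of the short arm of chromosome 17, and the other members of their lists are not described for this comparison.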

How the data were processed

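PRO-seq was performed in 24 libraries, 4 for each clone and treatment, grouped as the sample labels give them. The authors trimmed adapters, collapsed duplicates using the unique molecular identifiers, discarded ribosomal DNA reads, aligned what remained and counted it in genes. The labels' processing notes name hg38, cutadapt 1.8.1, Bowtie2 2.4.4 and SAMtools 1.9, whereas the annotation and strand setting of the counting are not given in the sources used here. The deposited values are raw counts for each gene and library, without normalization. Of 60605 Ensembl identifiers, 60463 matched GENCODE release 44, which gave symbols and coordinates.

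Counts were analysed with edgeR 4.0.16 in R 4.3.3 (filterByExpr with a minimum count of 10, TMM scaling, robust quasi-likelihood test), and tables were made with pandas 2.3.3. P-values were adjusted by Benjamini-Hochberg across every gene tested, and the threshold was 0.1. CPM are scaled by TMM, and per kb uses the length of the annotated gene span. Treatment was fitted with clone and treatment, each clone and the clone comparisons with the 6 groups, and replicate numbers in the 12 DMSO libraries with clone as a term. Replicate numbers pair the treatments, since both were collected together. Same-numbered libraries deviated together, with a correlation of 0.0926 to 0.318 (mean 0.185) over 12 pairs, 11 of them over 0.1. The block, a term for each of these pairs, is given beside treatment results whose call it changes. For clone comparisons the block was the replicate number shared across clones, which is not known to mark 1 time, and its effect is given in the closing section. Cultures are not stated to be independent beyond their collection time, so p-values measure the spread between these cultures.

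Members, gene lists and the split of replicate numbers were chosen with earlier results of these data known. Named were GAS5, EPB41L4A-AS1, ZFAS1 and DANCR, the 5 members highest per kb, the members past the threshold (at most 10 per comparison by size of change, or by p for tests of any difference) and at most 4 genes of each other list by p. Genes named outside that rule, such as the neighbours of a member, were chosen after their values were seen. The fits were also tested on simulated data.

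Alternatives were DESeq2 1.42.0, other size factors, other filters on low counts, a threshold of 0.05, the replicate block, the dTAG-13 libraries in place of DMSO, all 24 libraries and leaving out each library. Added after seeing the data were host counts without nested snoRNA genes and fits without the 2 libraries highest in snoRNA reads. Sequences of start sites are from RefSeq.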

Additional observations from a re-analysis of the deposited data

Results flagged for a closer look

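In 11 of 186 sets of 4 replicates, 1 host gene in 1 group of clone and treatment, the highest or lowest library stood apart from the other 3 by Dixon's test, where chance gives about 1 in 20, or 9.3. Of these, 3 were in Clone 35 dTAG-13 replicate 2, the library with the second highest share of snoRNA reads: SNHG3 was at 357 CPM (others 243 to 257), SNHG32 at 164 CPM (others 108 to 111) and SNHG6 at 148 CPM (others 86.7 to 90.3). In Clone 28 DMSO replicate 1, SNHG1 was at 777 CPM (others 329 to 377), and the percentage of counts in snoRNA genes itself was set apart at 0.535% (others 0.239% to 0.283%). All 4 hosts have nested snoRNA genes, as do 31 of the 32 host genes.

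In Clone 39 replicate 1, GAS5 was highest in DMSO at 811 CPM (others 563 to 600.0), EPB41L4A-AS1 highest in dTAG-13 at 78.7 CPM (others 60.2 to 62.2) and SNHG28 lowest in DMSO at 6.78 CPM (others 11.1 to 11.8). SNHG15 was highest in Clone 39 DMSO replicate 4 at 75.7 CPM (others 54.5 to 57.9). In Clone 35 DMSO, the lowest were SNHG17 in replicate 2 at 152 CPM (others 175 to 176), SNHG21 in replicate 1 at 9.06 CPM (others 12.2 to 12.4) and SNHG6 in replicate 3 at 94.8 CPM (others 103 to 105).

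For 2 genes every pair of 1 clone moved one way and every pair of another clone the opposite way. SNHG4 had a log2 fold change of 0.067 in Clone 28 and 0.11 in Clone 35, with all 4 pairs of each upward, and of -0.22 in Clone 39, with all 4 pairs downward. The edgeR test of the interaction gave an adjusted p of 1 for SNHG4 (0.0126 before adjustment). With the pairs as a block the same test gave 0.783 (0.000243 before adjustment). SNHG14 was at -0.062 in Clone 28 (0 of 4 pairs upward) and 0.12 in Clone 35 (4 of 4), whereas Clone 39 was at -0.061 and went both ways (2 of 4). The edgeR interaction test without the block gave an adjusted p of 1 for SNHG14 (0.504 before adjustment). With the block it gave 0.0185 before adjustment, and SNHG14 did not pass.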

How the results depend on the processing

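Of 128 counts of host genes called under another setting, 102 stayed within 1.5 times the reported count and 26 did not. With the treatment pairs as a replicate block, the treatment call was 1 instead of 0 and in Clone 28 it was 1 instead of 0. With a replicate block of numbers shared across clones, which are not known to mark the same time, any clone difference was 8 instead of 5, and Clone 35 against 28, 39 against 28 and 39 against 35 were 3, 7 and 8 instead of 1, 4 and 4. No call was lost, and added were SNHG14 and SNHG20, then DANCR, SNHG8 and SNHG20, then EPB41L4A-AS1, SNHG8, SNHG14 and ZFAS1. The share of all genes called in these clone tests rose too, from 28.5% to 39.7%, from 5.25% to 11.9%, from 26.7% to 35.2% and from 22.6% to 30.5%. The block together with nested snoRNA reads taken out gave 1 for treatment, 9 for any clone difference, 3 for Clone 35 against 28 and 9 for 39 against 28. All-gene shares at that setting are not given here, so these counts are not set against a background. Taking nested snoRNA reads out without the block gave 8, 2 and 7 for the clone tests. Of 22316 genes, 6363, 1174 and 5961 were then called, against 6361, 1173 and 5959 of 22326 with whole counts. For any clone difference DANCR and EPB41L4A-AS1 were then lost, and SNHG3, SNHG8, SNHG12, SNHG14 and SNHG20 added. For Clone 35 against 28 EPB41L4A-AS1 was lost and SNHG3 and SNHG20 added. For Clone 39 against 28 no call was lost. DESeq2 called 1 host gene for treatment, where it called 0.717% of all genes. No filter on low counts called 1 in Clone 28, where 0.163% of all genes were called. The block without the 2 libraries highest in snoRNA reads also called 1 there, EPB41L4A-AS1. The block with all libraries called the same gene, and 1.18% of all genes. The dTAG-13 libraries gave 8 for any clone difference, 0 for Clone 35 against 28, 8 for 39 against 28 (7 without nested reads) and 9 instead of 16 for any difference between replicate numbers, where all-gene shares were 27.5%, 5.57%, 26.4% and 20.1%. A threshold of 0.05 gave 3 for any clone difference, which cannot be set against the 28.5% of all genes at a threshold of 0.1. Clone 35 against 28 had 0 calls at a threshold of 0.05, with at least 10 counts in every library, with library totals only, or without the 2 libraries.

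Leaving out each library gave 0 to 0 calls for treatment, for treatment in each clone and for its difference between clones, 3 to 7 for any clone difference, 0 to 1, 3 to 6 and 3 to 5 for Clones 35 against 28, 39 against 28 and 39 against 35, 12 to 16 for any replicate difference and 10 to 13 for the split. The shares of all genes called in these fits are not given here, so the ranges are not set against a background. Over all genes, the split called 7553 genes by edgeR and 3848 by DESeq2, any replicate difference 6448 and 2365, and treatment 123 without and 521 with the block. DESeq2 called 11 host genes in the split (all genes 18.1%) and 11 for any replicate difference (all genes 11.1%). Of 601 values of 22 named results, 520 kept direction and side of the threshold, 71 kept direction only and 10 reversed. In the dTAG-13 libraries EPB41L4A-AS1 in Clone 35 against 28 was at 0.049 (0.0053 without nested reads), and in the split SNHG10 was at 0.0013 (0.045), SNHG19 at -0.12, SNHG30 at -0.042 (-0.046), and without nested reads SNHG3 was at 0.14 and ZFAS1 at 0.057. In DMSO without nested reads SNHG32 was at 0.074. Except where the setting itself takes out reads, genes or libraries, the cause was not tested.

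SNHG18, with 8 counts in all, had too few reads for a statement.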
